A study of Mus musculus with 32 samples.

Results

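Polysomal and monosomal RNA of untreated NMuMG cells were compared on 4 arrays, 2 of polysomal RNA and 2 of monosomal RNA, out of the 32 arrays of the study. NMuMG is a mouse mammary gland epithelial cell line. The cells of these arrays were not given TGFβ, carried no knockdown and were grown in DMEM with fetal bovine serum and insulin. The labels name the RNA fraction of each array in its title, and the arrays were taken by that title. The pools came from cytosolic extracts run on sucrose gradients of 10 to 50%. The monosomal pool held free ribosomal subunits and single ribosomes, and the polysomal pool held the heavier fractions.

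The same 3 RNA sources (total, monosomal and polysomal) were hybridized for NMuMG cells given TGFβ (labelled TGF-beta2, 5 ng/ml for 24 h), for E1KD cells, an NMuMG derivative with hnRNP E1 knocked down, and for E1KD cells given TGFβ. Each condition had 2 arrays, so that 24 arrays of 12 conditions were fitted together, and 8 immunoprecipitation arrays of the study entered no comparison here. The labels call the arrays of a condition biological replicates, and do not say whether they came from separate cultures, so each p-value reflects the spread among these arrays alone. The study's methods call the samples of a condition independent. The number of arrays limits the precision.

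A messenger RNA that is being translated carries several ribosomes at once and sediments deep in a sucrose gradient. An RNA that is stalled at initiation, or bound by a repressor, stays near the top with free subunits and single ribosomes. Messages with a 5′ terminal oligopyrimidine tract (5′ TOP), such as those for ribosomal proteins, and messages with upstream reading frames, such as those of the integrated stress response, are classical cases in which ribosome loading is set apart from RNA level. hnRNP E1, encoded by Pcbp1, is an RNA-binding protein that the study examines as a translational repressor released by TGFβ.

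Values are log2 signals of single probe sets, in which a difference of 1 is a doubling, and levels were compared only within a probe set. Of the 10 epithelial marker genes, 8 lay above the filter on low values. Krt18, a keratin of simple epithelia, read 14.34 in the monosomal mean, 14.45 in the polysomal mean and 14.35 in total RNA. Cdh1, which encodes E-cadherin, read 11.52, 10.45 and 12.41 in the same order. Cldn7 and Esrp1 were the epithelial markers below the filter. Of the markers of other cells, 1 of 8 fibroblast genes, 1 of 6 endothelial genes, 4 of 7 leukocyte genes, 3 of 6 myoepithelial genes and 0 of 4 adipocyte genes were above it. Ptprc, the common leukocyte antigen, was below it, with a mean of 3.67 on the monosomal and 4.08 on the polysomal arrays. The 4 leukocyte genes above it were Cd68, Cd3e, Cd79a and Csf1r. Csf1r, the highest of these, had means of 7.46 on the monosomal arrays, 7.68 on the polysomal arrays and 8.60 in total RNA.

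The monosomal arrays of untreated NMuMG cells stood apart from the other monosomal arrays, and they did so in their likeness to total RNA. Pearson's r between a monosomal and a total RNA array of these cells ran from 0.928 to 0.932 over 25432 probe sets, with a median absolute difference of 0.41 to 0.45 (log2). The polysomal arrays of the same cells had an r of 0.788 to 0.822 with total RNA and a median absolute difference of 0.87 to 1.00. In TGFβ-treated NMuMG cells the order was the opposite, with an r of 0.716 to 0.786 for the monosomal arrays and 0.844 to 0.845 for the polysomal arrays. In TGFβ-treated E1KD cells the ranges were 0.741 to 0.764 and 0.868 to 0.896. In untreated E1KD cells they were 0.873 to 0.887 and 0.884 to 0.900. These are descriptions of arrays that share probes and a normalization.

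**Figure D1:**
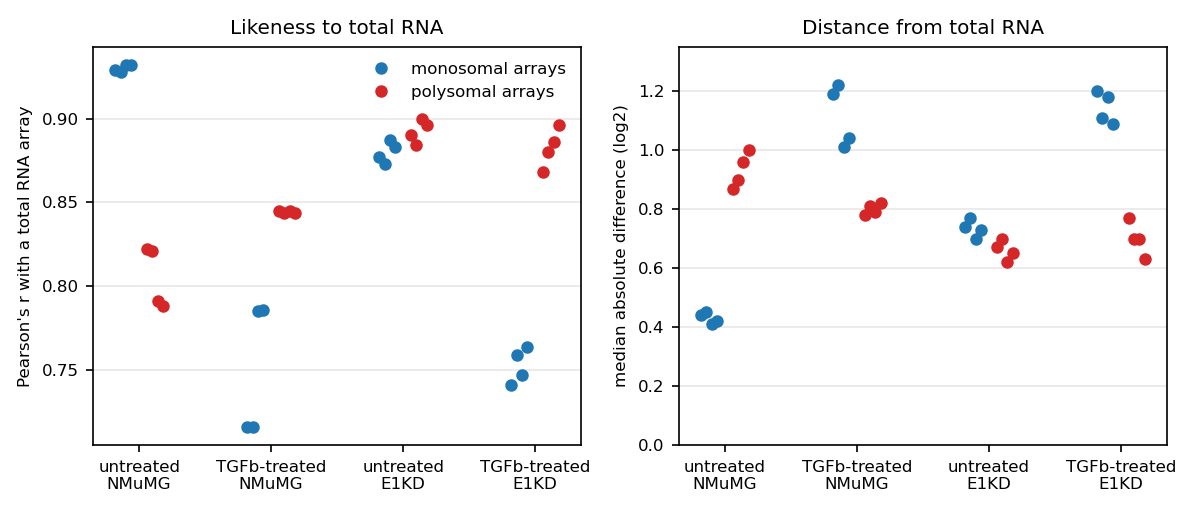
Likeness of each pool to total RNA of the same cells. Each point is 1 pair of a pool array and a total RNA array, with Pearson's r across 25432 probe sets on the left and the median absolute log2 difference on the right. The monosomal points of untreated NMuMG cells lie at 0.928 to 0.932, above every other point, and those of TGFβ-treated cells lie below the polysomal points of their own condition.

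Outside their own group, the arrays closest to both monosomal arrays were those of total RNA as well (r = 0.932 and 0.937 with total RNA replicate 1 of TGFβ-treated NMuMG cells). Both polysomal arrays were closest to a polysomal array of TGFβ-treated NMuMG cells (r = 0.966 and 0.959). The replicates were alike, with r = 0.995 for the monosomal pair, 0.983 for the polysomal pair and 0.997 for the total RNA pair.

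Control probe sets set the monosomal pair apart too. The Gapdh control, read as 3′ minus 5′ signal, was 0.51 and 0.45 on the monosomal arrays and between -0.04 and 0.13 on the other 22 arrays. The probe set for the B1 repeat, a short interspersed element found in many mouse transcripts, read 7.98 and 8.08 on the monosomal arrays, 13.63 and 12.96 on the polysomal arrays and 11 and 11.03 on total RNA, while no array outside the monosomal pair read below 10.25. The middle probe set for the small ribosomal RNA read 14.15 and 14.09 on the monosomal arrays and 14.11 and 14.03 on total RNA, against 11.69 and 12.70 on the polysomal arrays. The pyruvate carboxylase control (3′ minus 5′) was 0.63 and 0.44 on the monosomal arrays and 0.41 or less on the other 22 arrays. The lys spike-in, a bacterial RNA added during preparation, read 9.65 and 8.84 on the monosomal arrays and between 12.18 and 12.87 on the other 6 monosomal arrays. On total RNA of untreated NMuMG cells it read 8.02 and 7.09.

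Other controls did not part the monosomal pair from the polysomal arrays. The transferrin receptor control (3′ minus 5′) was 2.24 and 1.80 on the monosomal arrays and 1.89 and 1.62 on the polysomal arrays, against 3.42 and 3.62 on total RNA. The Actb control (3′ minus 5′) ran from 0.65 to 0.81 over the 6 arrays of untreated NMuMG cells. The polysomal arrays lay within the range of the other polysomal arrays for pyruvate carboxylase (-0.58 and -0.90, within -1.27 to -0.14) and for lys (11.27 and 11.41, within 9.97 to 11.51). Array medians over the probe sets kept were 7.54 and 7.59 for the monosomal pair, 7.12 and 7.07 for the polysomal pair and 7.61 and 7.63 for total RNA. The part of these differences in the results that follow was not tested, and RNA integrity, amplification and pool cannot be told apart on these arrays. Each gene list is therefore also given against total RNA in place of the monosomal arrays, where 42.7% of all genes were higher and 39.9% were lower in polysomal RNA. The monosomal and total RNA comparisons share arrays with the polysomal minus monosomal one, and their values are set side by side only.

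**Figure D2:**
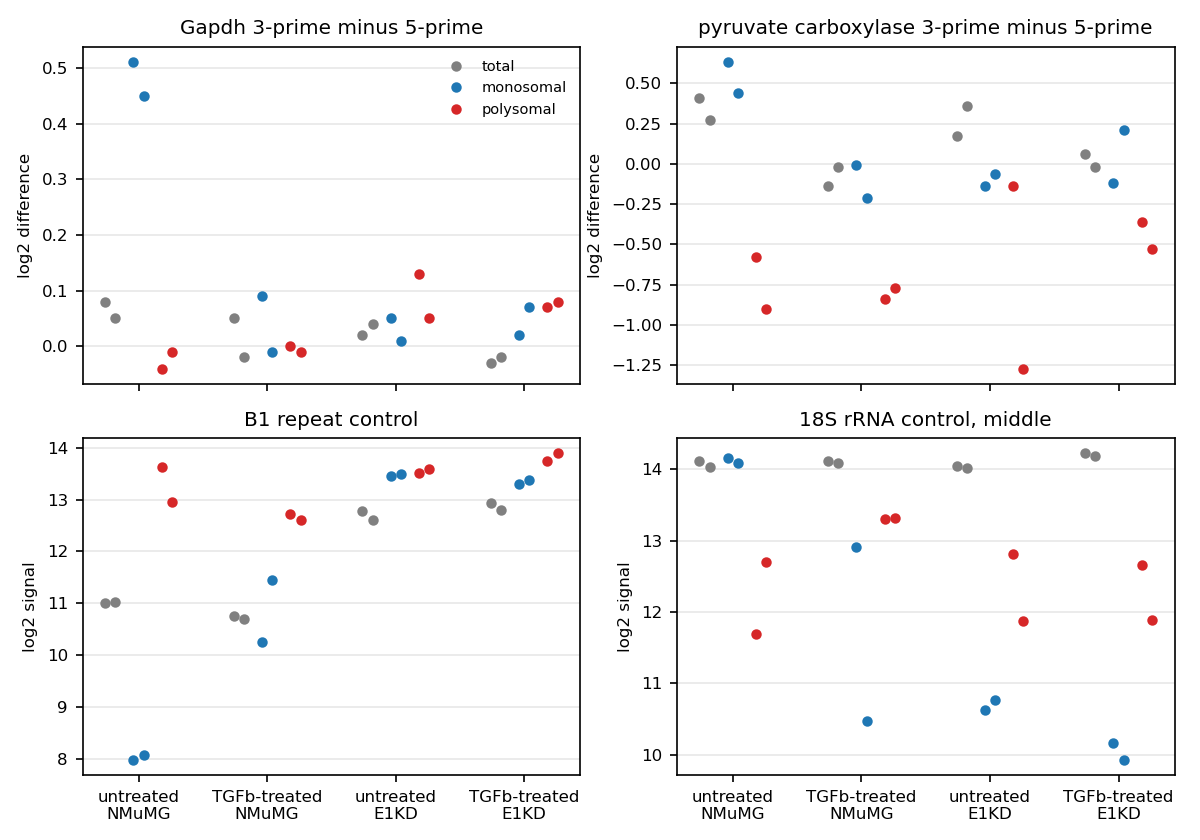
Control probe sets on all 24 arrays of total, monosomal and polysomal RNA. Points are single arrays; the upper panels plot 3′ minus 5′ log2 differences and the lower panels plot log2 signals. The monosomal arrays of untreated NMuMG cells hold the highest Gapdh differences (0.51 and 0.45) and the lowest B1 signals (7.98 and 8.08), and their signal for the small ribosomal RNA is at the level of total RNA.

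At an adjusted p under 0.05 in limma, 7453 of 25432 probe sets (29.3%) were higher in polysomal than in monosomal RNA and 10648 (41.9%) were lower. By size, 1930 were higher and 6450 were lower by 1 or more (log2), and the median difference was -0.13. The polysomal and monosomal arrays did not overlap in 9594 probe sets with higher and 12028 with lower polysomal values. The balance of directions depended on the scaling: 41.2% of the calls were higher with the deposited values, 49.9% after quantile normalization (8486 higher and 8531 lower), 52.6% after centring on Actb and Gapdh (9974 and 8992) and 62.5% after centring each array on its median (12251 and 7358). These scalings moved the median of all probe sets by 0.19, 0.23 and 0.47. Without the filter on low values, 51.9% of the calls were higher (11659 and 10808). Directions below are those of the deposited values.

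Against total RNA the monosomal pool was higher in 6356 probe sets (25.0%) and lower in 5582 (21.9%). The polysomal pool was higher than total RNA in 9600 (37.7%) and lower in 10629 (41.8%). Thus 16.2% of the probe sets differed by 1 or more between monosomal and total RNA, and 45.7% between polysomal and total RNA. In TGFβ-treated NMuMG cells these shares were 55.2% and 38.3%.

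For counts by gene, each of 12600 genes stood by its kept probe set of highest mean. Polysomal RNA was higher in 3847 genes (30.5%) and lower in 5526 (43.9%), with a median difference of -0.16 and with 5th and 95th percentiles of -2.04 and 1.16. The difference went with the level. In the 3150 genes of lowest total RNA signal (3.14 to 6.24) the median difference was 0.54, with 56.1% higher and 8.98% lower. In the 3150 genes of highest signal (9.98 to 14.75) it was -0.70, with 16.5% higher and 65.6% lower. The matching medians in TGFβ-treated NMuMG cells were -0.18 and 0.38. Probe sets at the low end carry more background. Gene lists differ in mean level as well. The part of the level in the differences of single genes and of the gene lists below was not tested.

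Probe sets of 1 gene did not always move alike. Of the 5612 genes with several kept probe sets, 774 (13.8%) had probe sets called in both directions, 646 had all of them higher and 1643 had all of them lower. In the untreated E1KD cells 117 of these genes (2.08%) were called in both directions.

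The 15 largest increases in polysomal RNA belonged to genes of several kinds. Serpina1c, which encodes a secreted protease inhibitor, read 7.83 and 7.98 on the monosomal arrays, 11.37 and 11.35 on the polysomal arrays and 8.26 and 8.30 on total RNA, a difference of 3.46 (standard error 0.22, adjusted p = 2.28e-09 from limma). Its close paralog Serpina1b read 10.16 and 10.36, 13.05 and 13.28, and 10.98 and 11.16 in the same order. These paralogs are near identical in sequence and may share signal. Ttr, the secreted thyroid hormone carrier transthyretin, read 7.41 and 7.42 on the monosomal arrays and 10.61 and 10.47 on the polysomal arrays. It read 9.82 and 9.70 on total RNA, and its 4 probe sets were all higher in polysomal than in monosomal RNA. Its monosomal minus total difference was -2.35 and its polysomal minus total difference was 0.78. Aldh2, a mitochondrial aldehyde dehydrogenase, differed by 3.10, Selenbp1, a selenium-binding protein, by 2.94 and Mpst, a sulfurtransferase, by 2.91. The largest other increases were those of Tmem134 (3.44), Clec2d (3.36), Snhg16 (3.17), Snhg12 (3.0) and Tcstv1 (2.82). Genes were taken here only where both polysomal arrays lay above both monosomal arrays.

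In the remaining 4 of the 15 the probe set named went against others of the same gene. Eif5, an initiation factor, had a probe set that was higher by 3.34, while 4 of its 5 probe sets were lower. Birc6 (3.31, with 1 of 4 probe sets higher and 2 lower), Thrap3 (2.82, with 1 of 3 higher and 2 lower) and Myh9 (2.82, with 1 of 5 higher and 2 lower) had the same discord. Their monosomal signals lay under total RNA, with monosomal minus total differences of -3.13 for Eif5 (6.40 and 6.78 against 9.82 and 9.62) and -4.26 for Thrap3 (5.16 and 5.33 against 9.56 and 9.46). Which transcript forms these probe sets read was not tested.

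With the deposited values the largest decreases in polysomal RNA were larger than the largest increases. This order depends on the scaling: centring on the array median moved the median of all probe sets up by 0.47 and Serpina1c to 3.92. Lpp, a focal adhesion scaffold, read 10.33 and 10.29 on the monosomal arrays, 6.72 and 5.50 on the polysomal arrays and 11.10 and 11.31 on total RNA, a difference of -4.20 (standard error 0.28, adjusted p = 4.05e-09 from limma), and 6 of its 7 probe sets were lower. S100a8, a calcium-binding protein of inflamed epithelia and myeloid cells, read 11.34 and 11.33, 7.59 and 7.21, and 12.34 and 12.34. Kif5b, a motor of kinesin-1, differed by -3.76 with all 5 probe sets lower, and Tmod3, which caps actin filaments, by -3.76. Hnrnpab, an hnRNP that binds RNA, differed by -3.74 with 6 of 7 probe sets lower. Fbxw7, the substrate receptor of a ubiquitin ligase for cyclin E and Myc, read 8.49 and 8.55, 4.57 and 5.29, and 9.15 and 9.15. Atp1b1, the beta subunit of the sodium pump, fell by 3.54 (11.81 and 11.75 on the monosomal arrays, 8.25 and 8.22 on the polysomal arrays). The others were Nt5e, Trim2, Ctla2b (each -3.70), Bnc1 (-3.68), Mterf3 (-3.60), Spsb1 (-3.54), Rnf103 (-3.53) and Hipk2 (-3.52). Genes were taken here only where the pools did not overlap. All 15 were lower on the polysomal arrays than in total RNA, with differences from -0.90 for Spsb1 to -5.10 for Lpp. That comparison shares the polysomal arrays by which the genes were chosen. In 5 of the 15 (Lpp, Tmod3, Nt5e, Spsb1 and Hipk2) at least 1 other probe set of the gene was called higher.

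**Figure D3:**
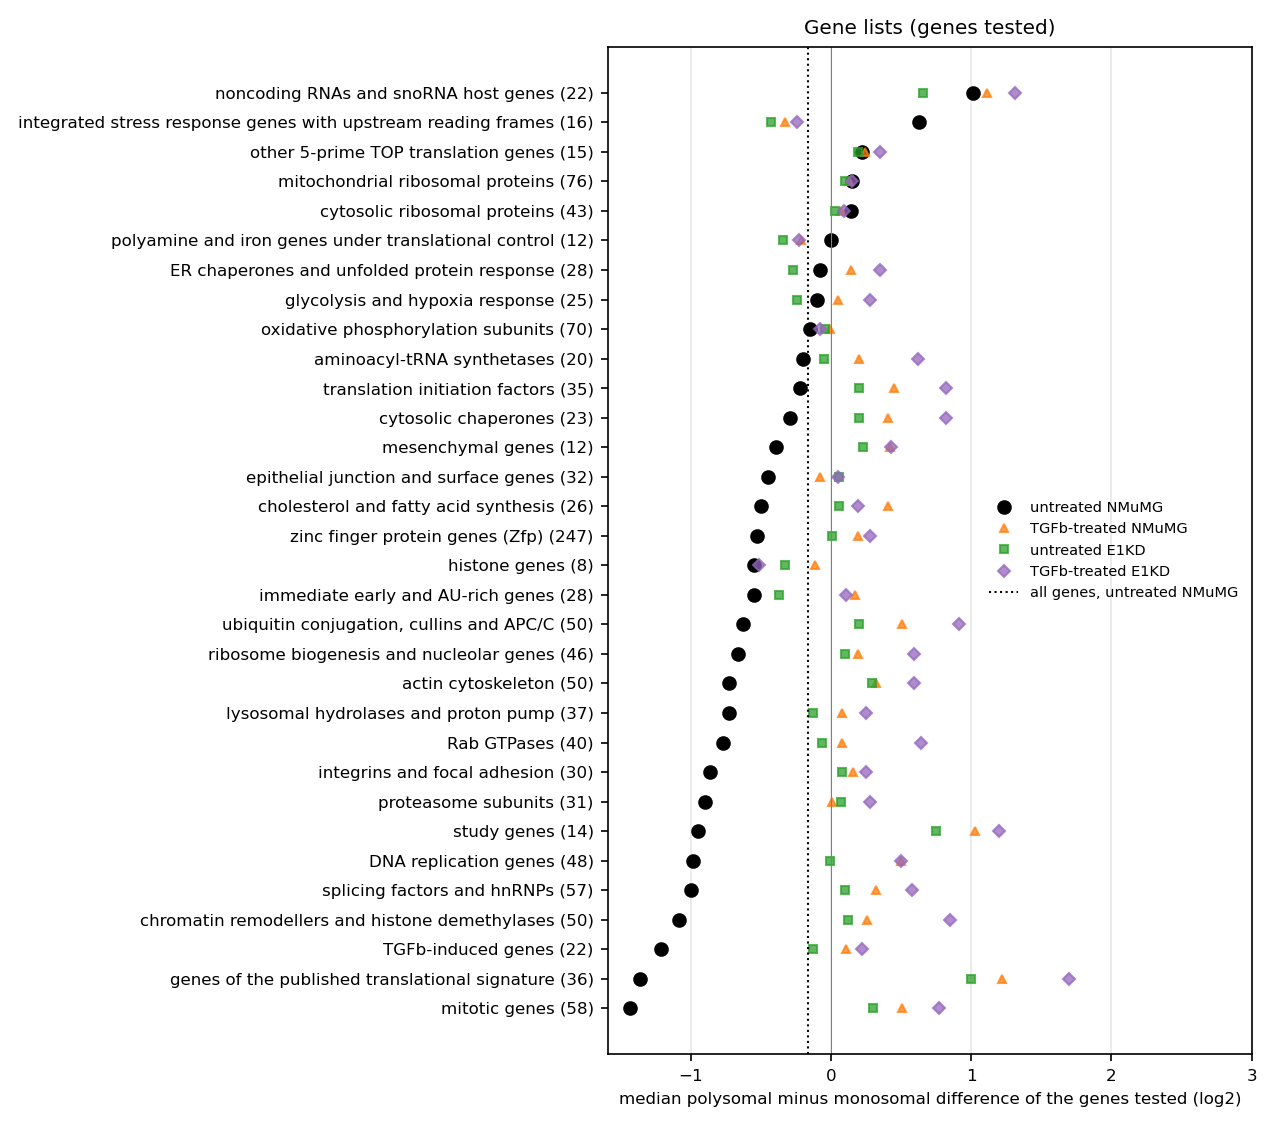
Median polysomal minus monosomal difference (log2, horizontal axis) of the genes tested in each list, with the number of genes in parentheses, in the 4 conditions. Black circles are untreated NMuMG cells and the dotted line is the median of all 12600 genes there, at -0.16. Noncoding RNAs lie highest at 1.01 and mitotic genes lowest at -1.43, and the mitotic medians of the other conditions are 0.51, 0.30 and 0.77.

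Genes of the translation machinery did not move as a block. Among cytosolic ribosomal protein genes, 44 of 79 were on the array with 1 symbol and 43 were tested. In polysomal RNA 18 were higher and 0 were lower, with a median of 0.14. Over all genes 30.5% were higher and 43.9% were lower, and the counts of each list below are to be read beside these shares. Against total RNA 13 of the 43 were higher in polysomal RNA and 3 were lower. The count of 18 fell to 11 without monosomal replicate 2, it was 13 with 3 lower after quantile normalization, and it was 36 after centring on Actb and Gapdh and 42 after centring on the array median. Rps27, a protein of the small subunit, read 8.10 and 8.19 on the monosomal arrays, 10.61 and 10.13 on the polysomal arrays and 8.21 and 8.28 on total RNA (difference 2.22, standard error 0.16, adjusted p = 8.13e-09 from limma). Rps6, the small subunit protein phosphorylated by S6 kinase, read 9.49 and 9.59, 10.92 and 10.84, and 9.76 and 9.79 in the same order. Rpl14 read 10.03 and 10.21, 11.55 and 11.20, and 10.70 and 10.90. Rpl12 read 5.56 and 5.80 on the monosomal arrays, 7.58 and 7.43 on the polysomal arrays and 9.42 and 9.40 on total RNA, so that it was higher in polysomal than in monosomal RNA and lower in both than in total RNA. The mean signal of the list was 13.21 and 13.21 on the monosomal arrays, 13.50 and 13.51 on the polysomal arrays and 13.34 and 13.33 on total RNA.

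The start of a message was read from RefSeq (GRCm38.p6), as the 10 bases before and the 20 bases from the annotated start, to show which of these genes begin with a pyrimidine run. Capitals mark a run that opens with C at the start itself and continues with at least 4 pyrimidines (C or T). The first 6 windows hold such a run and the last 3, from ribosomal protein genes that also rose, do not; they were chosen after their values were seen. They lie at chr3:90213629-90213658 (minus strand) for Rps27, chr4:86857348-86857377 (minus) for Rps6, chr9:120571507-120571536 (plus) for Rpl14, chr3:123508317-123508346 (minus) for Snhg8, chr1:161035156-161035185 (plus) for Gas5, chrX:103493548-103493577 (plus) for Jpx, chr2:32961702-32961731 (plus) for Rpl12, chr9:44407704-44407733 (plus) for Rps25 and chr15:5116603-5116632 (plus) for Rpl37.
Rps27: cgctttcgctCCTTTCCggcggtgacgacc
Rps6: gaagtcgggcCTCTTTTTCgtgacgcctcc
Rpl14: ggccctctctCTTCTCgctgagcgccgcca
Snhg8: gttcagaagtCTCTTTggctgcgatccgcc
Gas5: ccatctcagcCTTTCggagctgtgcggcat
Jpx: gaccccccccCCCCCCCacggcaccaccag
Rpl12: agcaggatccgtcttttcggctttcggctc
Rps25: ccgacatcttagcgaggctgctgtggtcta
Rpl37: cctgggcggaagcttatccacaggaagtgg

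A run at the listed start was found in 823 of 32851 starts (2.51%) and in 813 of 27025 genes (3.01%) of that table. It was found in 9 of 38 tested ribosomal protein genes (23.7%) and in 4 of 17 noncoding RNA genes (23.5%). The Rpl12 window shows a run that begins a few bases after the listed start, which the search does not count, so these shares depend on the annotated base. Over the 310 tested genes with the run, the median polysomal minus monosomal difference was 0.11, with 39% higher and 34.8% lower. Over the 299 of them outside the ribosomal and other 5′ TOP lists it was 0.09, with 38.8% higher and 36.1% lower. Over the 9867 tested genes without the run it was -0.19, with 29.6% higher and 44.7% lower. A match is a description of letters and not a functional site.

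Of 15 other 5′ TOP genes of translation, 8 were higher and 1 was lower, with a median of 0.22, and without monosomal replicate 1 or without polysomal replicate 2 the count higher was 5. Without those arrays or without monosomal replicate 2 no member was called lower. The eIF3 subunits stood out among them. Eif3k read 12.13 and 12.15 on the monosomal arrays, 13.47 and 13.30 on the polysomal arrays and 12.09 and 12.13 on total RNA. Eif3h differed by 1.14 (standard error 0.09, adjusted p = 1.63e-08 from limma). Eif3l differed by 0.89 and Eif3f by 0.65. Against total RNA 6 of the 15 were higher and 5 lower. Eef1a1, the elongation factor that brings aminoacyl-tRNA to the ribosome, was not called (-0.08, adjusted p = 0.376).

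Of the 35 translation initiation factors 12 were higher and 18 were lower, where 30.5% of all genes were higher and 43.9% lower. Their median of -0.22 became 0.25 when arrays were centred on their medians. After their values were seen the list was divided into eIF3 and the rest. Of the 11 eIF3 subunits 7 were higher and 2 were lower, with a median of 0.65, and of the 24 other factors 5 were higher and 16 were lower, with a median of -0.58. Eif3d, the cap-binding subunit of eIF3, read 11.70 and 11.72 on the monosomal arrays, 13.30 and 13.20 on the polysomal arrays and 12.57 and 12.62 on total RNA. Eif4g3, a scaffold of the cap-binding complex, read 8.28 and 8.39, 6.75 and 6.21, and 9.77 and 9.84. Eif1a, which acts in scanning, differed by -1.72 and Eif5b, which acts in subunit joining, by -1.48. Against total RNA 12 of the 35 were higher in polysomal RNA and 20 were lower.

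Of 20 transfer RNA synthetases 7 were higher and 8 were lower, shares near the 30.5% higher and 43.9% lower of all genes. Hars, the histidyl enzyme, read 10.88 and 11.20 on the monosomal arrays, 8.53 and 7.77 on the polysomal arrays and 10.90 and 10.94 on total RNA. Rars, the arginyl enzyme, differed by -2.06 (standard error 0.15, adjusted p = 7.64e-09 from limma). Qars, the glutaminyl enzyme, read 11.69 and 11.61, 12.88 and 13.30, and 11.49 and 11.41, and Fars2, a mitochondrial phenylalanyl enzyme, differed by 1.46. The list's median of -0.20 turned to 0.29, 0.03 and 0.27 under quantile normalization, with Actb and Gapdh as the reference and with the array median as the reference. Both pools lay under total RNA in most synthetases: the monosomal pool was lower in 15 and the polysomal pool in 13 of 20.

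Of 46 genes of ribosome biogenesis and the nucleolus, 11 were higher and 29 were lower, with a median of -0.66, and the counts were 15 and 23 with arrays centred on their medians. Ebna1bp2, a nucleolar protein of large subunit maturation, read 10.77 and 10.84 on the monosomal arrays, 7.76 and 7.58 on the polysomal arrays and 11.08 and 11.18 on total RNA. Ltv1, which acts in small subunit export, differed by -2.46 (standard error 0.16, adjusted p = 2.90e-09 from limma). Ddx27 differed by -2.37 and Utp18 by -2.20. Against total RNA 33 of the 46 were lower in polysomal RNA.

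Noncoding RNAs and hosts of small nucleolar RNAs had the highest median of any list, at 1.01. Of the 36 genes given, 27 were on the array with 1 symbol and 22 were tested, of which 15 were higher and 1 was lower. Host genes carry small nucleolar RNAs in their introns, and their spliced RNAs have no long reading frame. Snhg12 read 10.18 and 10.21 on the monosomal arrays, 13.30 and 13.10 on the polysomal arrays and 11.86 and 11.87 on total RNA (difference 3.0, standard error 0.09, adjusted p = 9.23e-12 from limma). Dancr read 7.81 and 8.08, 10.64 and 10.43, and 9.76 and 9.80. Snhg3 read 7.17 and 6.99, 8.78 and 9.23, and 9.26 and 9.31. Mir22hg, the host of miR-22, was the member called lower (8.38 and 8.74 on the monosomal arrays, 6.44 and 5.65 on the polysomal arrays). Divided after the values were seen, 11 of 12 small nucleolar RNA hosts were higher with a median of 1.34, and 4 of 10 other noncoding RNAs were higher with a median of 0.30. Malat1, a nuclear-retained RNA, was not called (0.24).

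The noncoding RNAs were low in the monosomal pool, with 18 of 22 lower than in total RNA and 0 higher. Against total RNA the polysomal pool had 9 higher and 8 lower. In the other conditions, whose arrays are separate, 16 of the 22 were higher in polysomal than in monosomal RNA of TGFβ-treated NMuMG cells and 2 were lower. In untreated E1KD cells 15 were higher and 0 lower, and in TGFβ-treated E1KD cells 17 were higher and 2 lower. The shares over all genes in those conditions were 29.3% higher and 25.9% lower, 17.0% and 22.2%, and 34.8% and 30.6%. In each of the 4 conditions at least 15 of the 22 were called higher.

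Genes of the integrated stress response lay higher in polysomal RNA, and in the other conditions more of them were lower. All 16 were tested, with 10 higher, 3 lower and a median of 0.63. Ddit3, the stress transcription factor CHOP, whose message carries an upstream reading frame, read 10.29 and 10.08 on the monosomal arrays, 13.02 and 12.96 on the polysomal arrays and 12.77 and 12.79 on total RNA (difference 2.80, standard error 0.10, adjusted p = 1.28e-11 from limma). Polysomal Ddit3 was not called against total RNA (0.21, adjusted p = 0.06), while the monosomal minus total difference was -2.60. Atf5, a stress transcription factor of the same kind, was the largest after it among those that rose (11.23 and 11.19 on the monosomal arrays, 12.58 and 12.55 on the polysomal arrays). Atf4, the central factor of the response, differed by 0.27. Atf5 and Atf4 are named after their values were seen.

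The stress response members that fell were Ppp1r15b, a constitutive eIF2 phosphatase subunit, and the eIF2 kinases Eif2ak3 and Eif2ak4. Ppp1r15b read 10.50 and 10.47 on the monosomal arrays and 8.08 and 8.28 on the polysomal arrays. Eif2ak3, the kinase PERK, read 8.88 and 9.09, and 7.36 and 6.61. In TGFβ-treated NMuMG cells 0 of the 16 were higher and 8 were lower, and in untreated E1KD cells 1 was higher and 10 were lower. Over all genes the shares there were 29.3% higher and 25.9% lower, and 17.0% and 22.2%. The difference itself was tested as an interaction: against TGFβ-treated NMuMG cells it was called in 14 of the 16 (11 higher and 3 lower in untreated cells), where 75.2% of all genes were called. Against untreated E1KD cells it was called in 14 as well, where 65.1% of all genes were. Against total RNA the polysomal pool had 3 members higher and 5 lower, so the balance of this list turned when total RNA took the place of the monosomal arrays.

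Genes of protein turnover were mainly lower in polysomal RNA, as were the 3150 genes of highest total RNA signal (median -0.70, 65.6% lower). The part of the level in these lists was not tested. All 31 proteasome subunits were tested, with 24 lower, 1 higher (2 without monosomal replicate 2 or without polysomal replicate 2) and a median of -0.90. The mean signal of the list was 11.80 and 11.82 on the monosomal arrays, 10.84 and 10.65 on the polysomal arrays and 11.72 and 11.75 on total RNA. Psmc1, an ATPase of the regulatory particle, read 9.98 and 10.01 on the monosomal arrays, 7.13 and 7.0 on the polysomal arrays and 9.95 and 9.98 on total RNA (difference -2.93, standard error 0.12, adjusted p = 3.26e-11 from limma). Psmd12, of the same particle, read 11.39 and 11.49, 8.84 and 8.56, and 11.49 and 11.55. Psmd7 fell by 3.10 by its probe set of highest mean, and its other probe set was higher. Divided after the values were seen, 15 of 17 regulatory particle subunits were lower with a median of -1.34, and 9 of 14 core subunits were lower with a median of -0.66.

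Proteasome subunits were also lower in polysomal than in total RNA, in 21 of 31, with 3 higher, and between monosomal and total RNA 7 were higher and 3 lower. The list kept a negative median under the 3 other scalings, from -0.43 to -0.73. In TGFβ-treated NMuMG cells 11 were higher and 10 lower, with a median of 0.01, where 29.3% of all genes were higher and 25.9% lower. The interaction was called in 25 of 31 members against TGFβ-treated NMuMG cells, 7 higher and 18 lower, where 75.2% of all genes were called.

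Of 50 genes of ubiquitin conjugation, cullins and the anaphase-promoting complex, 4 were higher and 36 were lower, with a median of -0.63, and the counts were 12 and 23 with arrays centred on their medians. Fbxw7, given above, led them. Ube2v2, a ubiquitin-conjugating enzyme variant, differed by -2.74 (standard error 0.22, adjusted p = 2.38e-08 from limma). Cul5, a cullin scaffold, differed by -2.62, and Skp2, which recognizes the inhibitor p27, by -2.32. Of the 6 probe sets of Skp2, 5 were lower and 1 was higher. Against total RNA 30 of the 50 were lower in polysomal RNA. The median of the list lay near the -0.70 of the genes of highest total RNA signal.

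Of 23 cytosolic chaperones, 1 was higher and 13 were lower, with a median of -0.29 that became 0.18 when arrays were centred on their medians. Dnaja1, a cochaperone of Hsp70, read 12.39 and 12.44 on the monosomal arrays, 10.06 and 9.63 on the polysomal arrays and 12.89 and 12.95 on total RNA. Ahsa1, which activates the ATPase of Hsp90, differed by -2.17. The 28 genes of endoplasmic reticulum chaperones and the unfolded protein response had 9 higher and 12 lower. These shares were near the 30.5% higher and 43.9% lower of all genes. Their median of -0.08 changed sign under each of the 3 other scalings (0.08, 0.15 and 0.39) and with the median over all probe sets of a gene (0.10). Herpud1, a degradation factor induced by unfolded proteins, read 10.23 and 10.29, 11.60 and 11.59, and 11.69 and 11.77. Hyou1, a chaperone of the reticulum, also differed by 1.34, while Dnajc3, an inhibitor of PERK, differed by -1.27. Against total RNA 4 of the 23 cytosolic chaperones were higher in polysomal RNA and 18 lower, and 10 of the 28 reticulum genes were higher and 14 lower.

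Mitotic genes were the lowest of the lists, with 53 of 58 tested members lower, 1 higher and a median of -1.43. The mean signal of the list was 9.13 and 9.18 on the monosomal arrays, 7.81 and 7.60 on the polysomal arrays and 9.42 and 9.49 on total RNA. Without polysomal replicate 2, no member was called higher. Kif20a, a kinesin of cytokinesis, read 8.21 and 8.40 on the monosomal arrays, 5.22 and 5.41 on the polysomal arrays and 7.79 and 7.97 on total RNA (difference -2.99, standard error 0.17, adjusted p = 6.92e-10 from limma). Cenpi, of the inner kinetochore, read 9.23 and 9.38, 6.46 and 6.17, and 8.90 and 8.99. Nuf2, of the outer kinetochore, differed by -2.79 and Bub1, a spindle checkpoint kinase, by -2.72. Against total RNA 51 of the 58 were lower in polysomal RNA, and monosomal RNA had 15 higher and 25 lower.

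In TGFβ-treated NMuMG cells 29 of the 58 mitotic genes were higher in polysomal RNA and 6 were lower, and in untreated E1KD cells 24 were higher and 4 lower. In TGFβ-treated E1KD cells 35 were higher and 8 lower. Over all genes the shares in these 3 conditions were 29.3% higher and 25.9% lower, 17.0% and 22.2%, and 34.8% and 30.6%. The interaction was called in 51 of the 58 in each of the 2 tests, against TGFβ-treated NMuMG cells and against untreated E1KD cells, with 50 of them lower in untreated NMuMG cells. Over all genes it was called in 75.2% and 65.1%.

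Of 48 DNA replication genes, 3 were higher and 37 were lower, with a median of -0.98, and the counts were 8 and 27 with arrays centred on their medians. Pcna, the sliding clamp of DNA polymerases, read 13.40 and 13.31 on the monosomal arrays, 11.10 and 10.64 on the polysomal arrays and 13.28 and 13.28 on total RNA. Gins1, of the replicative helicase, differed by -2.54 and Mcm6, of the same helicase, by -2.31. Orc6, of the origin recognition complex, differed by -2.25 (standard error 0.18, adjusted p = 2.79e-08 from limma). Of 8 histone genes tested, 5 were lower and 1 was higher. H2az1, a variant histone with a polyadenylated message, read 13.33 and 13.27, 11.81 and 11.67, and 12.37 and 12.44. Of 20 histone genes given, 9 were on the array with 1 symbol. Without monosomal replicate 1 or without polysomal replicate 1, no histone gene was called higher. Against total RNA 9 of the 48 replication genes were higher in polysomal RNA and 33 lower, and 3 of the 8 histone genes were higher and 4 lower.

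Nuclear regulators of chromatin and splicing had like counts. Of 50 chromatin remodellers and histone demethylases, 3 were higher and 40 were lower, with a median of -1.08 (7 and 30 with arrays centred on their medians). Baz1a, of an ISWI remodelling complex, read 9.16 and 9.14 on the monosomal arrays, 6.21 and 6.64 on the polysomal arrays and 10.40 and 10.45 on total RNA. Arid2, of a SWI/SNF complex, differed by -1.86, with 3 of its 4 probe sets lower and 1 higher. Nsd1, a histone methyltransferase, differed by -1.76. In this list the monosomal pool was itself under total RNA, with 42 of 50 lower and 0 higher, and the polysomal pool was lower than total RNA in 46. Of 57 splicing factors and hnRNPs, 2 were higher (1 without either monosomal replicate) and 46 were lower, with a median of -1.0, and the counts were 9 and 31 with arrays centred on their medians. Srsf10, a splicing regulator, read 10.48 and 10.84, 8.66 and 7.97, and 10.87 and 10.84. Hnrnpd, which binds AU-rich elements, differed by -2.00, and Sf3a1, of the U2 particle, was higher (8.87 and 8.93 on the monosomal arrays, 10.97 and 11.23 on the polysomal arrays), with all 3 of its probe sets higher. Against total RNA 4 of the 57 were higher in polysomal RNA and 47 were lower.

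Of 247 tested genes of zinc finger proteins named Zfp, 44 were higher and 131 were lower, with a median of -0.53, and the counts came to 79 and 91 when arrays were centred on their medians. Zfp281, a transcription factor, read 9.03 and 9.11 on the monosomal arrays, 5.96 and 6.16 on the polysomal arrays and 9.86 and 9.88 on total RNA. Zfp948 differed by -2.66. Against total RNA 58 of the 247 were higher in polysomal RNA and 133 were lower. Of 28 immediate early genes and messages with AU-rich elements, 4 were higher and 17 were lower, with a median of -0.55. The counts came to 8 and 11 after quantile normalization (median -0.11) and to 10 and 12 with arrays centred on their medians (median -0.08). Against total RNA 4 were higher in polysomal RNA and 18 were lower. Jun, of the AP-1 factor, read 7.86 and 8.19, 5.40 and 5.15, and 7.38 and 7.67, and Fosl2, of the same factor, differed by -2.19. Egr3 differed by 1.60 in the other direction.

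Mitochondrial genes encoded in the nucleus had calls on both sides, as did all genes (30.5% higher and 43.9% lower), and their balance moved with the scaling. Of 76 mitochondrial ribosomal proteins, 31 were higher and 25 were lower, with a median of 0.15. The counts came to 46 and 14 after quantile normalization (median 0.42), to 43 and 18 with Actb and Gapdh as the reference (0.38) and to 50 and 13 with the array median as the reference (0.62). Mrpl18 read 11.23 and 11.30 on the monosomal arrays, 9.08 and 8.78 on the polysomal arrays and 10.07 and 10.25 on total RNA. Mrpl24 read 10.53 and 10.59, 12.26 and 12.05, and 11.10 and 11.10, so that members of 1 ribosomal subunit lay on both sides. Of 70 oxidative phosphorylation subunits, 20 were higher and 29 were lower, with a median of -0.15 that became 0.08 when Actb and Gapdh set the level of each array and 0.33 when the array median did. Ndufs1, the largest subunit of complex I, read 9.31 and 9.39, 7.35 and 6.48, and 10.99 and 11.02. Between monosomal and total RNA 49 of the 76 and 38 of the 70 were called higher and 6 and 5 lower, where 29.1% of all genes were higher and 19.2% lower. Between polysomal and total RNA 48 and 33 were called higher and 17 and 21 lower.

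Metabolic enzymes had calls on both sides, as did all genes (30.5% higher and 43.9% lower). Of 26 genes of cholesterol and fatty acid synthesis, 4 were higher and 13 were lower, with a median of -0.50 that came to 0.01 after quantile normalization. Hsd17b7, a sterol reductase, read 9.62 and 9.58 on the monosomal arrays, 6.96 and 6.53 on the polysomal arrays and 9.29 and 9.42 on total RNA, with 3 of its 4 probe sets lower and 1 higher. Mvd, a decarboxylase of the same pathway, read 9.45 and 9.34, 11.35 and 11.38, and 9.05 and 9.05. Idi1 differed by -2.35 and Sqle by -1.92. Of 25 genes of glycolysis and the hypoxia response, 7 were higher and 10 were lower, with a median of -0.10 that changed sign under each of the 3 other scalings (0.24, 0.13 and 0.37). Hif1a, the oxygen-regulated factor, read 11.42 and 11.55, 10.02 and 9.54, and 12.12 and 12.05. Against total RNA 7 of the 26 synthesis genes were higher in polysomal RNA and 16 lower, and 2 of the 25 glycolysis and hypoxia genes were higher and 17 lower.

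Adhesion and cytoskeleton genes were mainly lower in polysomal RNA, as were the 3150 genes of highest total RNA signal (median -0.70, 65.6% lower). The part of the level in these lists was not tested. Of 30 integrins and focal adhesion genes, 1 was higher (0 without polysomal replicate 2) and 20 were lower, with a median of -0.86, and the counts were 8 and 15 with arrays centred on their medians. Itgb1, the common beta chain of many integrins, read 10.40 and 10.33 on the monosomal arrays, 7.86 and 7.76 on the polysomal arrays and 11.07 and 11.05 on total RNA (difference -2.56, standard error 0.13, adjusted p = 1.98e-10 from limma). Tns3, a tensin, differed by -1.70, with 1 of its 2 probe sets lower and the other higher. Of 50 actin cytoskeleton genes, 5 were higher and 38 were lower, with a median of -0.73, and the counts were 12 and 25 with arrays centred on their medians. Rhob, a small GTPase with an unstable message, read 10.15 and 10.29, 7.61 and 7.97, and 8.67 and 8.75. Arpc5, of the actin-nucleating Arp2/3 complex, read 12.38 and 12.37, 10.30 and 10.32, and 11.95 and 11.96. Against total RNA 20 of the 30 and 37 of the 50 were lower in polysomal RNA.

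Of 32 epithelial junction and surface genes 9 were higher and 18 were lower, where 30.5% of all genes were higher and 43.9% lower. Their median of -0.45 came to 0.02 when arrays were centred on their medians. The count higher was 5 without monosomal replicate 2 and 4 without polysomal replicate 1. Ocln, the tight junction protein occludin, read 8.31 and 8.47 on the monosomal arrays, 6.76 and 6.40 on the polysomal arrays and 9.45 and 9.48 on total RNA. Cldn4, a claudin, read 9.04 and 9.11, 7.35 and 6.58, and 5.76 and 5.90, so that it was lowest in total RNA and differed by 3.24 between monosomal and total RNA. Mpp5, a polarity scaffold, differed by -1.65. Krt19, a keratin, read 11.63 and 11.57, 13.21 and 13.04, and 12.24 and 12.38, and was higher by 1.52 (standard error 0.11, adjusted p = 8.96e-09 from limma). Against total RNA 10 of the 32 were higher in polysomal RNA and 18 were lower.

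Targets of TGFβ and mesenchymal genes are of interest here because these cells had received no TGFβ. Of 22 TGFβ-induced genes tested, 1 was higher in polysomal RNA (0 without monosomal replicate 1) and 20 were lower, with a median of -1.21. Pdgfa, a growth factor, read 11.34 and 11.40 on the monosomal arrays, 8.67 and 8.15 on the polysomal arrays and 9.37 and 9.41 on total RNA (difference -2.96, standard error 0.16, adjusted p = 5.37e-10 from limma). Itgb6, the integrin chain that activates latent TGFβ, read 8.01 and 7.90, 5.36 and 5.46, and 7.06 and 6.68. Thbs1, a matrix protein, read 8.10 and 8.18, 6.17 and 5.41, and 9.27 and 9.38. The counts of the list came to 1 higher and 14 lower after quantile normalization (median -0.67). With arrays centred on their medians they were 2 and 17 (median -0.74). Against total RNA the polysomal pool was lower in 16 of the 22 and higher in 4, and the monosomal pool was higher in 11 and lower in 3.

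Of 12 mesenchymal genes tested, 4 were higher and 6 were lower, where 30.5% of all genes were higher and 43.9% lower. Their median of -0.39 became 0.08 when arrays were centred on their medians. Zeb1, a repressor of Cdh1, read 8.47 and 8.38 on the monosomal arrays, 7.03 and 7.01 on the polysomal arrays and 8.93 and 9.01 on total RNA. Mmp2, a gelatinase, read 5.09 and 5.24, 6.58 and 6.33, and 5.09 and 5.20, close to the limit of the filter, which was 5.52. Against total RNA 5 of the 12 were higher in polysomal RNA and 5 were lower.

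The study's published translational signature has 36 genes, which were selected on these samples partly for a monosomal signal above the polysomal one by a set fold in untreated NMuMG cells. Their direction here is thus set by that selection and is not independent evidence. All 36 were lower in polysomal RNA, from -0.27 for Tmem167 to -2.80 for Zeb2, with a median of -1.36. Each gene stands here by its probe set of highest mean, which may not be the one the study used. A difference given here therefore need not reach the study's fold. Against total RNA, which shares the polysomal arrays with that selection, 33 were lower and 1 was higher. Between monosomal and total RNA 8 were higher and 12 were lower, with a median of -0.11.

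**Figure D4:**
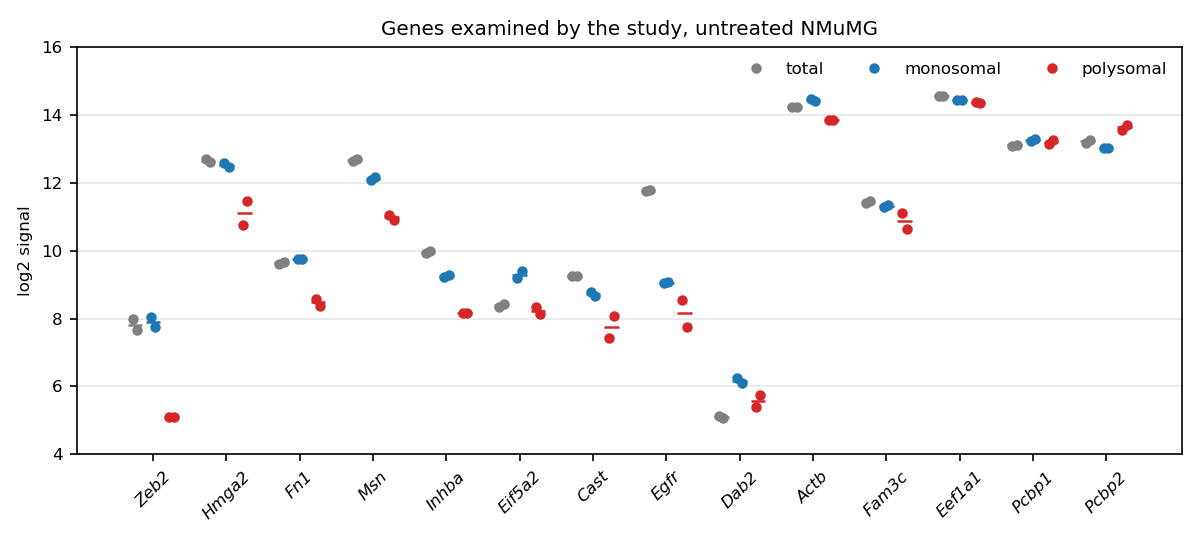
Log2 signal of the genes that the study examines, in the 6 arrays of untreated NMuMG cells. Points are arrays (n = 2 per source) and short lines are means. Zeb2 is at 5.10 and 5.09 on the polysomal arrays against 8.05 and 7.75 on the monosomal arrays, while Pcbp1 lies between 13.08 and 13.30 on all 6. Zeb2 belongs to the study's signature, which was selected on these samples partly for a monosomal signal above the polysomal one.

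Among the genes that the study examines itself, Pcbp1, which encodes hnRNP E1, read 13.23 and 13.30 on the monosomal arrays, 13.15 and 13.25 on the polysomal arrays and 13.08 and 13.12 on total RNA. The pools overlapped and Pcbp1 was not called (-0.06, adjusted p = 0.581 in limma), and when arrays were centred on their medians the difference was 0.41. Pcbp2, its paralog, was higher by 0.61, with all 3 probe sets higher. Eef1a1, which the study names as a partner of hnRNP E1, read 14.44 and 14.43, 14.37 and 14.34, and 14.55 and 14.55, near the top of the range, and it came to 0.39 with the same centring. Actb differed by -0.59 (14.46 and 14.42 on the monosomal arrays, 13.86 and 13.84 on the polysomal arrays), with 1 of its 2 probe sets lower and the other higher, and it was not called after centring on the array median (-0.12).

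Fam3c, the cytokine ILEI and a known target of hnRNP E1 in these cells, read 11.30 and 11.34 on the monosomal arrays, 11.10 and 10.63 on the polysomal arrays and 11.40 and 11.47 on total RNA. Its difference of -0.46 (standard error 0.14, adjusted p = 0.00938 from limma) was called, but it was -0.22 and not called without polysomal replicate 2, and it came to 0.01 when arrays were centred on their medians. Both of the 2 probe sets of Fam3c were called lower with the deposited values (-0.84 and -0.46). Fam3c belongs to the signature above, which was selected on these samples partly for this direction. Dab2, an adaptor and the other known target, read 6.25 and 6.09, 5.38 and 5.75, and 5.12 and 5.08, a difference of -0.61 that was not called (adjusted p = 0.0561). It was called in 3 of the alternatives. The interaction with TGFβ was called for Fam3c (-2.35), whose difference in TGFβ-treated NMuMG cells was 1.90.

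Zeb2, a repressor of epithelial genes, read 8.05 and 7.75 on the monosomal arrays, 5.10 and 5.09 on the polysomal arrays and 7.98 and 7.67 on total RNA, and 2 of its 4 probe sets were lower and 1 higher. Hmga2, an architectural chromatin protein, read 12.58 and 12.46, 10.76 and 11.45, and 12.69 and 12.61. Fn1, fibronectin, read 9.74 and 9.76, 8.57 and 8.38, and 9.61 and 9.67. In these 3 genes monosomal and total RNA lay together and polysomal RNA lay below both. Zeb2 and Hmga2 belong to the signature above, which was selected on these samples partly for this direction, and Fn1 does not belong to it. The genes Msn, Inhba, Eif5a2, Cast and Egfr, given next, belong to it too. Msn, which links actin to the membrane, differed by -1.14, Inhba, an activin subunit, by -1.08, Eif5a2, an isoform of the hypusinated factor, by -1.06, and Cast, the calpain inhibitor, by -0.98. Egfr, the receptor of epidermal growth factor, read 9.04 and 9.09 on the monosomal arrays, 8.54 and 7.76 on the polysomal arrays and 11.76 and 11.78 on total RNA, so both pools lay under total RNA, and its 6 probe sets had 3 higher and 2 lower. Without polysomal replicate 2 Egfr was not called (-0.52).

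The polysomal minus monosomal difference of untreated NMuMG cells was set beside that of the other 3 conditions, with which it shares no arrays. Across 25432 probe sets Pearson's r was -0.13 with TGFβ-treated NMuMG cells, 0.03 with untreated E1KD cells and -0.35 with TGFβ-treated E1KD cells. Among the 3 other conditions r was 0.70 to 0.82. Over all probe sets 27.6% were higher and 22.1% were lower in polysomal RNA of TGFβ-treated NMuMG cells, and 34.0% and 26.6% in that of TGFβ-treated E1KD cells. Of the 10648 probe sets lower in untreated NMuMG cells, 4160 (39.1%) were higher and 2000 (18.8%) were lower in TGFβ-treated NMuMG cells. Of the same 10648, 5942 (55.8%) were higher and 1695 (15.9%) were lower in TGFβ-treated E1KD cells. Of the 7453 probe sets higher in untreated NMuMG cells, 1414 (19%) were higher and 1796 (24.1%) were lower in TGFβ-treated NMuMG cells. The interaction was called in 17894 probe sets (70.4%) against TGFβ-treated NMuMG cells and in 15708 (61.8%) against untreated E1KD cells. As the monosomal arrays of untreated NMuMG cells differed from all other monosomal arrays in their likeness to total RNA and in their control probe sets, treatment, knockdown and the makeup of that pool cannot be told apart in these differences.

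**Figure D5:**
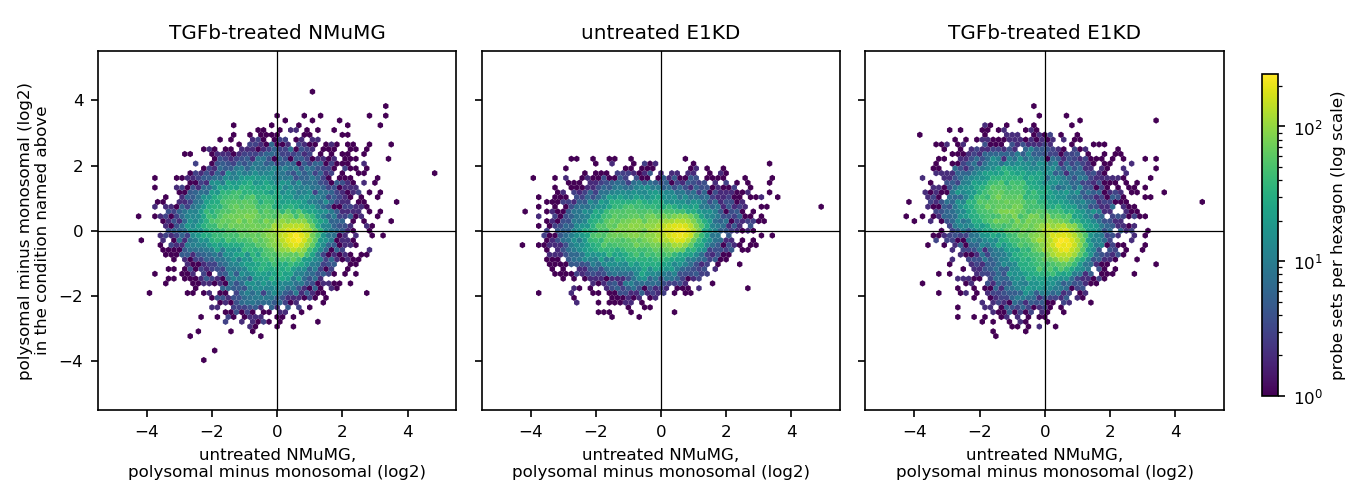
Polysomal minus monosomal difference (log2) of 25432 probe sets in untreated NMuMG cells (horizontal axis) against each other condition (vertical axis). Colour gives the number of probe sets per hexagon on a log scale. The clouds have Pearson's r of -0.13, 0.03 and -0.35 from left to right, with many probe sets in the upper left part, lower in untreated NMuMG cells and higher in the other condition.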

How the data were processed

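RNA was hybridized to Affymetrix mouse expression arrays. The deposited values are log2 signals per probe set, which the authors computed by RMA in Affymetrix Expression Console. The submitters' processing notes also name MAS5; versions are not given in the sources used here. RMA values are relative within an array, so a shift of the whole RNA pool is not seen.

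From these values 64 control probe sets were left out, and of 45101 probe sets in the table those above the median of all values (5.52) on at least 8 of the 32 arrays were kept, 25432 in all. Of these, 22090 carried 1 gene symbol in GEO's platform annotation, 621 several and 2721 none. A gene stood by its kept probe set of highest mean, and 12600 genes resulted. The 24 arrays of total, monosomal and polysomal RNA were fitted with 1 mean per condition in limma 3.58.1 (R 4.3.3), with eBayes and Benjamini-Hochberg adjustment over all probe sets kept, at 0.05. Python 3.11.15 made the tables (pandas 2.3.3, numpy 2.4.6) and plots (matplotlib 3.10.9). Groups came from the sample titles. The 8 immunoprecipitation arrays entered only the filter and 1 alternative fit.

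The members and gene lists were chosen with earlier results of these data known. The genes named are the 15 largest differences in each direction with arrays that do not overlap, up to 4 members of each list with the largest differences past the threshold, the genes the study examines, and cell type markers; others were chosen after their values were seen. Lists are described by counts and medians, to be read beside those of all genes (30.5% higher, 43.9% lower and a median of -0.16).

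The correlation of same-numbered deviations was -0.207 between monosomal and polysomal arrays and 0.131 between monosomal and total RNA arrays. It was -0.173 between polysomal and total RNA arrays. With 2 arrays per condition these values cannot show whether same-numbered arrays are paired, and the main fit did not pair them. The fit was tested on simulated data for the polysomal against monosomal comparison over 25432 probe sets. It recovered 18% of changes of 0.5 (log2), 54% of changes of 1, 74% of changes of -1 and 98% of changes of 2. There were 6 false calls among 25232 unchanged probe sets. In the data 18101 of the 25432 were called, so few changes were simulated beside the data and these rates do not describe the comparison itself. The alternatives tried were different filters and array sets, a variance trend, 3 scalings, a replicate block, leaving out each array and another gene summary. List counts without each array, under the scalings and against total RNA, and a block with exchanged numbers, were added after the data were seen. Coding length was not analysed here.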

Additional observations from a re-analysis of the deposited data

Results flagged for a closer look

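The polysomal minus monosomal difference of untreated NMuMG cells differed from that of TGFβ-treated NMuMG cells in 17894 probe sets and from that of untreated E1KD cells in 15708, by the interaction term in limma at an adjusted p under 0.05. The values below are the untreated minus the TGFβ-treated difference (log2) for those of the 30 largest differences and of the genes the study examines in which this term was called. It was also called for other genes named in the report.

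Among the genes highest in polysomal RNA, the term was 3.22 for Serpina1c and 2.74 for Serpina1b, the secreted protease inhibitors, and 1.52 for Ttr. It was 2.56 for Snhg16 and 1.54 for Snhg12, hosts of small nucleolar RNAs. It was 2.13 for Aldh2, 3.10 for Selenbp1, 2.31 for Mpst and 1.66 for Myh9. It was 0.74 for Tmem134 and 1.09 for Clec2d, which were higher in polysomal RNA in both conditions.

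Among the genes lowest in polysomal RNA, the term was -4.65 for Lpp, -2.00 for S100a8, -5.04 for Kif5b, -4.51 for Tmod3 and -2.43 for Hnrnpab. It was -4.42 for Nt5e, -4.11 for Trim2, -5.30 for Ctla2b, -4.62 for Bnc1 and -3.42 for Mterf3. It was -3.98 for Fbxw7, -3.96 for Spsb1, -4.42 for Atp1b1, -2.94 for Rnf103 and -3.09 for Hipk2. The genes highest and lowest in polysomal RNA were chosen by the untreated difference that the term contains, so the choice favoured a call. Over all genes the term was called in 75.2%.

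Among the genes the study examines, the term was -4.42 for Zeb2, -2.80 for Eif5a2, -2.51 for Hmga2, -2.49 for Fn1, -2.38 for Inhba and -2.35 for Fam3c. It was -2.12 for Msn, -2.02 for Egfr, -1.94 for Cast and -0.32 for Eef1a1. Of these, the signature genes were selected on these samples for such a difference. The monosomal arrays of untreated NMuMG cells also stood apart in their likeness to total RNA (r = 0.928 to 0.932, against 0.716 to 0.786 with TGFβ) and in control probe sets, and this cannot be told apart from the treatment.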

How the results depend on the processing

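The count of probe sets higher in polysomal RNA was 7453, and it came to 11659 with no filter on low values and to 12251 with arrays centred on their medians. Leaving out each array in turn gave 5697 to 6727 higher and 9545 to 10339 lower, 9350 to 9862 called between monosomal and total RNA and 18336 to 19336 between polysomal and total RNA, and 16189 to 17736 and 13520 to 15599 for the interactions with TGFβ and with the knockdown. The other planned settings left these counts within 1.5 times.

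Centring on the array median turned the difference of Pcbp1 to 0.41, of Eef1a1 to 0.39 and of Fam3c to 0.01. The median of all genes, -0.16, became 0.12 with quantile normalization, 0.06 with Actb and Gapdh as the reference and 0.31 with the array median as the reference. In the same order of settings, synthetases came to 0.29, 0.03 and 0.27, reticulum chaperones to 0.08, 0.15 and 0.39 (0.10 over all probe sets of a gene) and glycolysis to 0.24, 0.13 and 0.37. Oxidative phosphorylation came to 0.08 with Actb and Gapdh and 0.33 with the array median, and cholesterol synthesis to 0.01 with quantile normalization. With the array median, initiation factors came to 0.25, cytosolic chaperones to 0.18, epithelial junction genes to 0.02 and mesenchymal genes to 0.08. Of the named genes' values, 2221 kept their direction and call, 9 lost the call, 5 gained it and 3 changed sign.

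The replicate block gave 7497 higher and 10665 lower, and changed no call by over 1.5 times. Whether the numbers pair the samples is not known. With the numbers of the polysomal arrays exchanged it gave 7606 and 10776. The number of arrays, 2 per condition, and signals near background limit what small differences can show.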

Other observations

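Other gene groups of the polysomal minus monosomal comparison are given here as values, to be read beside 30.5% higher and 43.9% lower over all genes. Of 40 Rab GTPases, switches of vesicle traffic, 8 were higher in polysomal RNA (5 without monosomal replicate 1) and 27 were lower, with a median of -0.77 (12 and 19 with arrays centred on their medians). Rab27b differed by -2.42, Rab2a by -2.15, Rab33b by -2.12 and Rab5a by -1.99. Between monosomal and total RNA 19 of the 40 were higher and 0 were lower, where 29.1% of all genes were higher and 19.2% lower. Against total RNA 15 were higher in polysomal RNA and 19 were lower, with a median of -0.26. Of 37 lysosomal hydrolases and proton pump subunits, 5 were higher (3 without any 1 of the 4 arrays) and 25 were lower, with a median of -0.73 (9 and 18 with arrays centred on their medians). Ctsl, a cathepsin, read 13.69 and 13.65 on the monosomal arrays, 11.95 and 11.50 on the polysomal arrays and 13.71 and 13.75 on total RNA, and Ctsc, another cathepsin, differed by -2.12. Divided after the values were seen, 10 of 14 pump subunits and 15 of 23 other lysosomal genes were lower. Against total RNA 7 of the 37 were higher in polysomal RNA and 22 were lower. The median of -0.73 lay near the -0.70 of the genes of highest total RNA signal.

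Of 12 polyamine and iron genes with known translational control, 3 were higher and 3 were lower, with a median of 0.00. The counts came to 5 and 2 after quantile normalization (median 0.19), to 6 and 3 with Actb and Gapdh as the reference (0.23) and to 8 and 2 with the array median as the reference (0.48). Against total RNA 7 were higher in polysomal RNA and 3 were lower. Fth1, the ferritin heavy chain, whose message carries an iron-responsive element, read 13.33 and 13.49 on the monosomal arrays, 14.70 and 14.70 on the polysomal arrays and 14.49 and 14.53 on total RNA. Azin1, an inhibitor of antizyme, read 10.73 and 10.80, 8.57 and 7.93, and 10.74 and 10.73. Odc1, ornithine decarboxylase, was not called (-0.19).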
